A study of Mus musculus with 12 samples.

Results

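The tumour cells of Clone E are the cells that the authors' deposited annotation calls Tumor in the Total library of the Clone E tumour. They numbered 795 of the 11020 cells of that library, or 7.21% (95% Clopper-Pearson interval 6.74 to 7.71), and of 60657 cells in the 6 Total libraries. After 18 cells called doublets had been left out, 777 cells with 5224776 unique molecular identifiers (UMIs, each marking 1 captured molecule, which is an RNA copy or a ligated probe pair depending on the chemistry) were described. Clone E is a population grown from a single cell of 4T1, a mouse triple-negative mammary carcinoma line, and the study compared such clones of epithelial, intermediate and mesenchymal state. Each tumour gave a Total library and a library of CD45-selected cells, and only the 6 Total libraries were used. The Clone E tumour was set beside those of the clones EM1, EM2, EM3 and M and of the parental 4T1 line, which is not a clone. All 6 were implanted after culture into the mammary fat pad of female BALB/c mice, 9 to 11 weeks old in the labels, with no other treatment named. Each group was 1 tumour sample, so a difference between groups cannot be told apart from a difference between single tumours or mice. There was therefore no test and no p-value. Levels are in CPM, the usual scaling of counts to a common library total, here the UMIs of a gene summed over the tumour cells of a tumour, and their intervals cover counting error only.

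Epithelial cells are held together by cadherins at adherens junctions, by desmosomes that anchor keratin filaments, and by claudins and occludin at tight junctions. In the epithelial-to-mesenchymal transition these parts are lost, often through transcription factors of the Snail, Zeb and Twist families that repress them, and vimentin and matrix proteins are gained. 4T1 is known for metastasis and for secreting factors that draw myeloid cells, so its clones are used to study how these states and the immune infiltrate go together.

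The cells were checked against 5 markers given for them. These were the keratin Krt8, the adhesion molecule Epcam, the cadherin Cdh1, the claudin Cldn4 and the laminin chain Lama3. Every cell was thinned to 2000 UMIs for this, which kept 713 of the 777 cells. At least 3 of the 5 markers had a UMI in 91.4% of these cells, against 0.259 to 15.3% of the tumour cells of the other tumours, 1.36% of macrophages and 3.60% of T and NK cells of the same library. The cells thus carried the markers given for them. These are epithelial genes, and the check cannot decide whether the annotation Tumor holds. The 19 cells with normal luminal markers described below all had a UMI of Krt8, Epcam, Cdh1 and Cldn4. Of the 5 markers, 4 were also higher in Clone E than in each other tumour by the rule given below, and Krt8 was not.

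The Clone E library stood apart from the other Total libraries in its depth and in what its tumour cells carried. Its tumour cells had a median of 6539 UMIs, against 9689 to 15273 in the others, and no cell of the library exceeded 12646 UMIs. The 6 libraries held 38499899 to 122055131 UMIs, and that of Clone E 40546201. Mitochondrial transcripts made up a median of 1.79% of their UMIs, against 0.252 to 0.548%. The summed level of 5 leukocyte markers was 303 CPM, against 39.2 to 97.9 CPM, and all 5 were detected. Granulocyte markers summed to 1301 CPM (171 to 679 CPM in the others), macrophage markers to 485 CPM (82.3 to 363 CPM) and T and NK markers to 94.0 CPM (8.41 to 25.9 CPM). Ptprc, the CD45 gene, was at 25.3 CPM, against 865 CPM in the T and NK cells of the library. Fibroblast markers, at 330 CPM, lay within the range of the other tumours (215 to 369 CPM), and endothelial markers summed to 31.6 CPM (5.49 to 18.2 CPM). Of the 16-base droplet barcodes of the Clone E library, 1434 (13.0%) also occurred in the EM3 library, against 106 to 211 shared with each other library, and 103 of the tumour cells used lay in such droplets. The EM1 and EM2 libraries shared 906 barcodes (13.5% of those of EM1), so such sharing was not particular to Clone E. The barcode bases after these 16, compared in the first cell of each library, differed between Clone E and EM3 and between EM1 and EM2. They were the same in Clone E, EM1 and the parental library, and the same in EM2, EM3 and M. Whether libraries shared a capture well was not tested. Leaving out the droplets shared by Clone E and EM3 gave 148 genes higher and 49 lower in Clone E than in each other tumour, of which 144 and 45 were among the 148 and 47 found with them.

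Limiting cells to 12646 UMIs in every tumour, also chosen after the data had been seen, gave 97 higher and 38 lower genes, of which 94 and 36 were among them.

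A small set of the annotated cells also carried genes of the normal mammary gland. When cells were counted that had at least 5 UMIs from 10 markers of normal luminal cells, a limit chosen after the data had been seen, 19 Clone E tumour cells (2.45%) reached it. They held 60.9% of the UMIs of these markers, 3 cells had exactly 4 such UMIs and 2 exactly 5, and their median depth, 6542 UMIs, was that of the rest. The luminal progenitor enzyme gene Aldh1a3 was at 732 CPM (594 to 893) in the 19 cells and at 0.589 CPM in the other 758, and Elf5, a transcription factor of the milk-secreting lineage, at 166 and 0.785 CPM. The prolactin receptor Prlr was at 559 and 2.16 CPM and Cited1, a co-regulator of hormone-sensing luminal cells, at 1034 and 11.0 CPM. A UMI was found in 8 of the 19 cells for Aldh1a3, 8 for Elf5, 10 for Prlr and 9 for Cited1. The summed levels are therefore not those of every cell in the set. Aldh1a3, Prlr and Cited1 are among the markers that chose the cells, so their levels only describe them, and Elf5 is not.

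Other genes also differed between the 19 cells and the rest. Krt19 was at 9687 CPM in the 19 cells and 238 CPM in the rest, and Krt8 at 13189.8 and 2814 CPM. By contrast Vim was at 339.7 CPM against 4563 CPM, the matrix gene Fn1 at 453 against 14486 CPM, and Hmga2, an oncofetal chromatin factor, at 22.6 against 578 CPM. No UMI of Krt14, Krt17 or Twist1 was found in the 19 cells, which allows up to 27.9 CPM at the 95% upper limit for each, against 509.6, 108 and 187 CPM in the rest. Cldn4 was higher in the 19 cells, at 16089 against 4356 CPM, and Jun was at 2522 against 2571 CPM. No class was given to these cells here. In the other tumours the same limit was reached by 5 cells of EM1, 24 of EM2, 5 of EM3, 43 of the parental tumour and 575 (12.2%) of M. In M 218 cells had exactly 4 such UMIs and 135 exactly 5, and the cells at the limit had a median of 16450 UMIs. The limit was not adjusted for depth, so these are not like sets of cells. Of the 10 markers only 1 reached 50 CPM in any tumour. Its log2 ratio of Clone E over M was −2.66, and 0.19 to 0.57 over the other tumours. The part of this gene in the M cells at the limit was not tested. Without all cells at the limit, 136 genes were higher and 50 lower in Clone E than in each other tumour, and genes whose call rests on the 19 cells are named as such below.

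**Figure D1:**
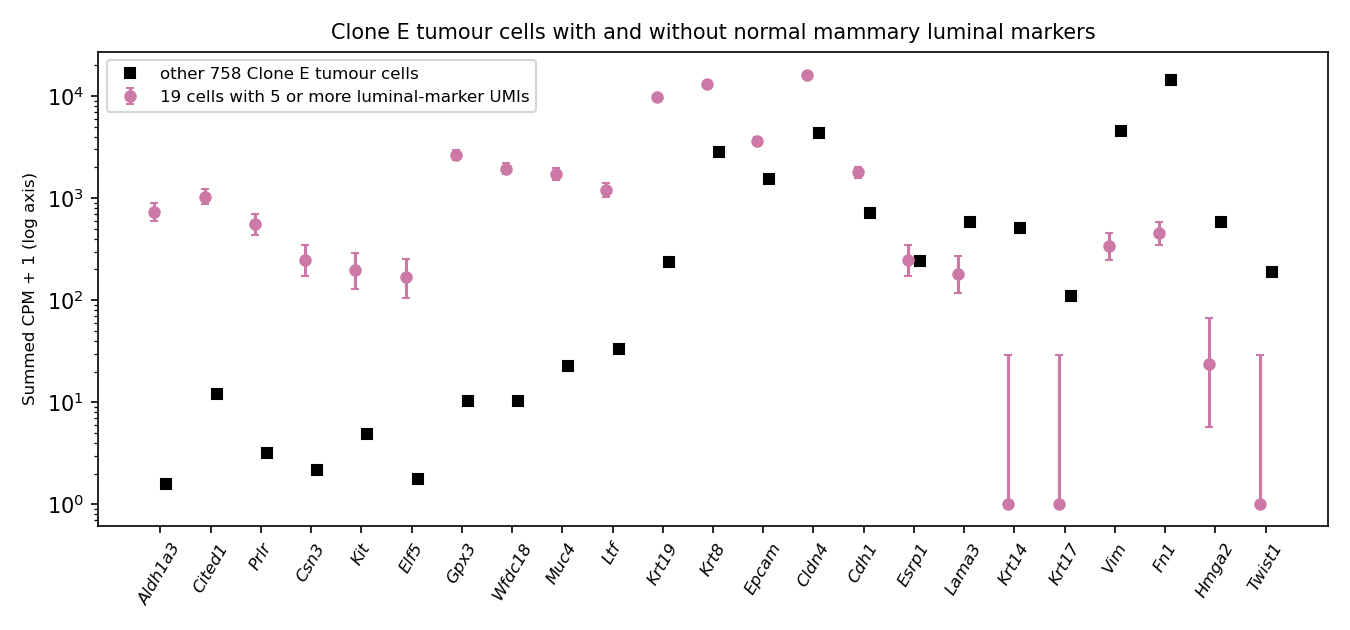
Summed CPM + 1 on a log axis for 23 genes in the 19 Clone E tumour cells with at least 5 UMIs of luminal markers (circles, bars are exact Poisson 95% intervals) and in the other 758 (squares). The luminal genes at the left and Gpx3, Wfdc18, Muc4 and Krt19 lie far higher in the 19 cells, whereas Krt14, Krt17, Vim, Fn1, Hmga2 and Twist1 lie lower. Levels are summed over the 19 cells, and Aldh1a3, for example, had a UMI in 8 of them.

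Genome-wide, a gene was compared when it reached 50 CPM in at least 1 of the 6 sums, and it was called when the log2 ratio of CPM + 10 was at least 1 in size. Of 5829 genes compared, 148 (2.54%) were higher in Clone E than in each of the 5 other tumours and 47 (0.806%) were lower than in each. The same rule applied to the others gave 18 higher and 0 lower genes for EM1, 4 and 3 for EM2, 1 and 12 for EM3, 24 and 20 for M, and 0 and 0 for the parental tumour. Clone E thus had the most genes of its own in both directions, and the pairs of tumours that include it differed in 8.53 to 14.2% of genes, against 1.89 to 6.16% for the pairs without it. Against single tumours, 281 genes (4.82%) were higher and 216 (3.71%) lower than in EM1, 343 (5.88%) and 219 (3.76%) for EM2, and 367 (6.3%) and 213 (3.65%) for EM3. For M the counts were 452 (7.75%) and 373 (6.4%), and for the parental tumour 357 (6.12%) and 175 (3%).

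The balance between the directions depended on the scaling. With CPM 75.9% of the genes called were higher, and with median-of-ratios size factors 42.7% were, with 90 higher and 121 lower genes. That scaling lowered the median log2 ratio of all genes from −0.06 to −0.32, a shift of −0.25. All 90 higher genes were among the 148, and all 47 lower genes among the 121. With it the lists described below had 2 higher adherens junction and desmosome genes, 5 tight junction genes, 3 keratins, 2 laminin-332 genes and 2 epithelial transcription and splicing genes. It also gave 1 lower gene in the laminin-332 list and 2 in the glycolysis and hypoxia list, where CPM gave 0. Of the 148 higher genes, 99 were at least as high in the tumour cells as in every other annotated class of the Clone E library, while 49 were higher in another class and 28 of those over 5 times higher. RNA from such cells and RNA made by the tumour cells were not separated here.

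**Figure D2:**
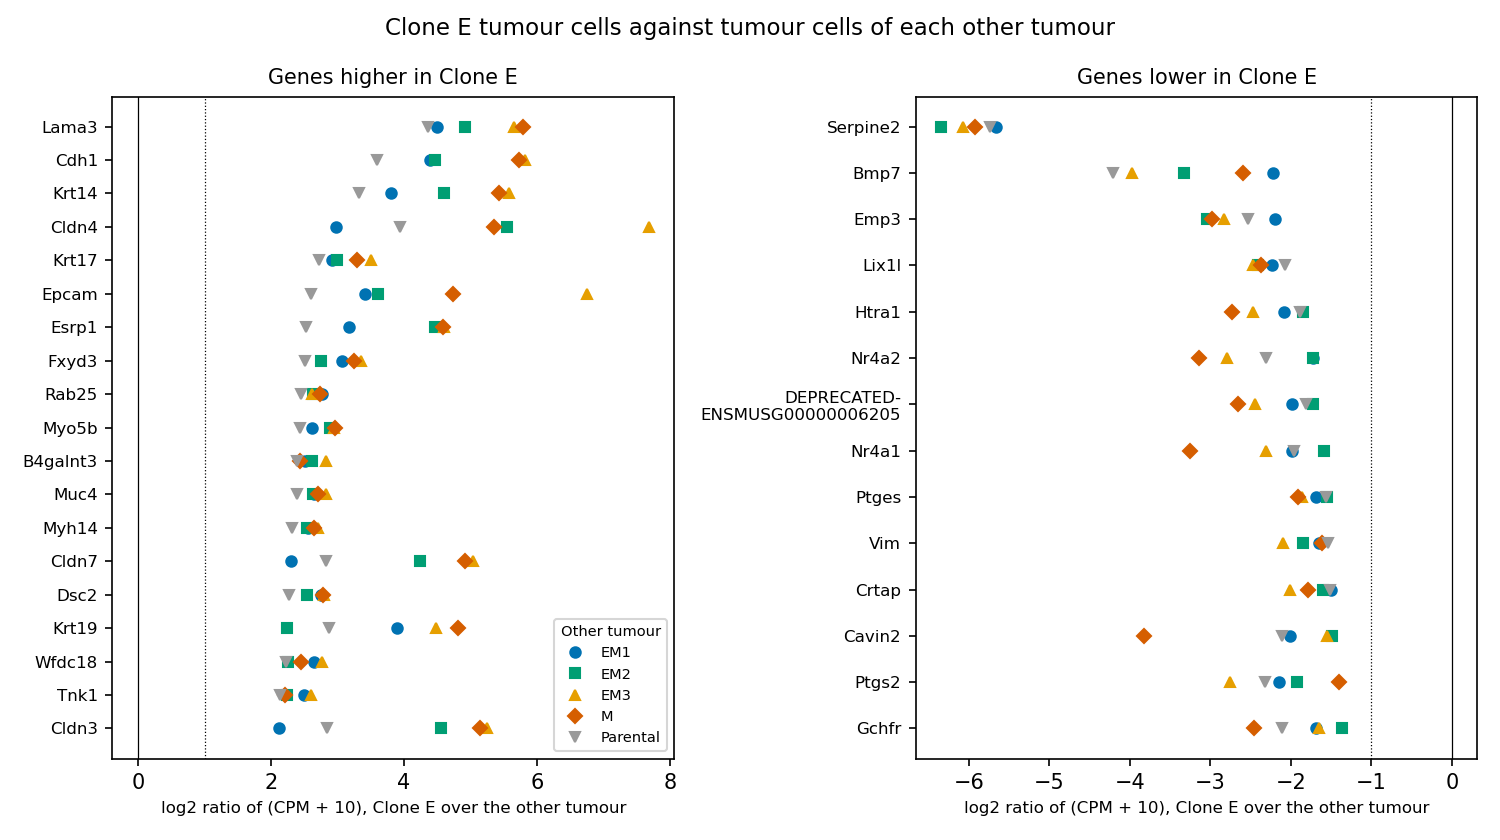
Log2 ratio of CPM + 10 in Clone E tumour cells over each other tumour (1 symbol per tumour) for 19 of the 20 genes with the highest smallest ratio and 14 of the 15 with the lowest largest ratio. Higher genes had to be at least as high in Clone E tumour cells, and lower genes in another tumour, as in every other class of the Clone E library. Dotted lines mark the ratio of 1 in size that makes a call, and all 5 symbols of each gene lie beyond it, from Lama3 (4.36 at its smallest) to Serpine2 (−5.66 at its largest).

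A gene that reached 50 CPM in Clone E alone could only be compared because it was high there. The counts of compared genes below therefore describe the lists and support nothing. Each epithelial list, and several of the others, is also given over all its members with no minimum. With no minimum 282 of all 19369 genes were higher than in each, and at 50 CPM 2.54% were higher and 0.806% lower. These shares of all genes belong beside every list count below.

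Among the genes of adherens junctions and desmosomes, 4 of 9 compared were higher in Clone E than in each other tumour and 0 were lower, beside 2.54% and 0.806% of all genes. Their median log2 ratio over the median of the others was 1.64, and that of all genes −0.06. The count was 2 with cells limited to 12646 UMIs and 2 with the mean of the CPM of single cells. With no minimum it was 5 of 13, with a median of 1.35, and Dsc2 reached 50 CPM in Clone E alone. Cdh1, which encodes E-cadherin, the adhesion receptor of epithelial cells, was at 741 CPM (95% interval 718 to 764) in Clone E, 51.9 in the parental tumour, 4.18 in M, 25.7 in EM1, 24.1 in EM2 and 3.26 in EM3. All 5 other tumours lay far below, the parental one nearest, and the log2 ratios ran from 3.60 to 5.82. Jup, the plakoglobin that serves both kinds of junction, was at 815 CPM (95% interval 791 to 840.0) in Clone E, 222 in the parental tumour, 118 in M, 375 in EM1, 250.4 in EM2 and 44.8 in EM3. EM1 came nearest to Clone E, with a log2 ratio of 1.10, and EM3 was lowest.

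Desmosomal genes were higher to unequal degrees. Dsc2, a desmosomal cadherin, was at 59.9 CPM (53.5 to 66.9) in Clone E and 0.069 to 4.54 CPM elsewhere. Its partner Dsg2 was at 120.4 CPM and 0.718 to 51.5 CPM elsewhere, and its smallest log2 ratio, 1.09, was 0.99 without the cells at the luminal limit, which ends the call. The desmosomal genes Dsp, Pkp3 and Perp were highest in Clone E but were not called, with smallest log2 ratios of 0.95, 0.81 and 0.52. Ctnnd1, the catenin that stabilises cadherins at the membrane, was at 211 CPM in Clone E and 215 to 256 CPM in the others, so the catenin did not share the difference of Cdh1.

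Of the tight junction and polarity genes 7 of 11 compared were higher than in each and 0 lower, beside 2.54% and 0.806% of all genes. Their median log2 ratio was 2.17. Ocln, Cgn and Marveld3 reached 50 CPM in Clone E alone. With no minimum 9 of 18 were higher, beside 282 of all 19369 genes, with a median of 1.23. Cldn4, a claudin that seals the paracellular space, was at 4654 CPM (95% interval 4595 to 4713) in Clone E, 293 in the parental tumour, 105 in M, 582 in EM1, 89.4 in EM2 and 12.8 in EM3. The other tumours spread over a wide range, EM1 highest and EM3 lowest, and none reached the Clone E level. Cldn7, another epithelial claudin, was at 435 CPM (95% interval 417 to 453) in Clone E, 52.6 in the parental tumour, 4.79 in M, 80.2 in EM1, 13.4 in EM2 and 3.50 in EM3. Cldn3 was at 388 CPM (95% interval 371 to 405) in Clone E, 45.8 in the parental tumour, 1.30 in M, 81.7 in EM1, 6.93 in EM2 and 0.514 in EM3. In both, EM1 was nearest to Clone E, and EM3 and M were near the floor.

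Ocln, the occludin of the tight junction strand, was at 117 CPM (108 to 127) against 3.15 to 27.8 CPM, and the adaptor cingulin, Cgn, at 80.4 CPM against 1.51 to 16.9 CPM. The 3-cell junction relative Marveld3 was at 54.2 CPM against 0.891 to 8.48 CPM. Tjp1, which encodes ZO-1, was at 138 CPM against 128 to 232 CPM and Cldn12 at 48.8 CPM against 41.6 to 66.1 CPM, both within the range of the others. Clone E thus differed in claudins and occludin and not in every scaffold beneath them.

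Epcam, the adhesion molecule of simple epithelia, was at 1583 CPM (95% interval 1549 to 1617) in Clone E, 253 in the parental tumour, 50.04 in M, 139.6 in EM1, 120.1 in EM2 and 4.73 in EM3. The parental tumour was the nearest and EM3 the farthest, with log2 ratios of 2.60 and 6.76. Rab25, a small GTPase of apical recycling in epithelia, was at 60.9 CPM (54.4 to 67.9) in Clone E and 0.444 to 3.01 CPM in the others. St14, the membrane protease matriptase, was at 407 CPM against 29.2 to 115 CPM, while its inhibitor genes Spint1 (141 CPM against 78.6 to 182 CPM) and Spint2 (577 CPM against 370.3 to 527 CPM) were not called. Of 11 compared surface and sorting genes 5 were higher than in each other tumour and 0 lower, and with no minimum 9 of 20 were higher, with a median of 0.97. Rab25 and Erbb2 reached 50 CPM in Clone E alone. They included the receptor gene Erbb2, at 65.5 CPM against 20.3 to 27.6 CPM, whose smallest log2 ratio of 1.01 was 0.99 without the cells at the luminal limit. Erbb3, its partner receptor, was too low to be compared, at 36.7 CPM in Clone E and 0.343 to 4.36 CPM elsewhere.

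The upstream sequences of 4 junction and surface genes are shown because all 4 were higher in Clone E and each holds the E-box letters CACCTG, or CAGGTG on the other strand, which Snail and Zeb factors are known to bind. Each run is the 250 bases before a RefSeq start on GRCm38.p6, 5′ to 3′ on the strand of the gene, and capitals mark the E-box letters. Epcam lies at chr17:87635729-87635978 on the plus strand, with the letters starting 187 and 19 bases before the start. Cldn4 lies at chr5:134946935-134947184 on the minus strand, with 1 match 14 bases before the start. Rab25 lies at chr3:88548280-88548529 on the minus strand, with matches 64 and 53 bases before the start. Cldn7 has another listed start, whose window has no match, and the window shown is chr11:69965171-69965420 on the plus strand, with matches 97 and 57 bases before the start.
Epcam: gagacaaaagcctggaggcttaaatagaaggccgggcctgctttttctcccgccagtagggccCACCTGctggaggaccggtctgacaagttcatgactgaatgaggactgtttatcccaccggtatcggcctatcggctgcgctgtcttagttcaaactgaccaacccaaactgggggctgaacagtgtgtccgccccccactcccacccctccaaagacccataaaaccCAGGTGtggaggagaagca
Cldn4: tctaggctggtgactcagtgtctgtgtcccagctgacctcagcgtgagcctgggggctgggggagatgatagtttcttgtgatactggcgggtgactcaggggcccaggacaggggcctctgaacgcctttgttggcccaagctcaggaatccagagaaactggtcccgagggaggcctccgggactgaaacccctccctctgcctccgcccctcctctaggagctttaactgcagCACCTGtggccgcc
Rab25: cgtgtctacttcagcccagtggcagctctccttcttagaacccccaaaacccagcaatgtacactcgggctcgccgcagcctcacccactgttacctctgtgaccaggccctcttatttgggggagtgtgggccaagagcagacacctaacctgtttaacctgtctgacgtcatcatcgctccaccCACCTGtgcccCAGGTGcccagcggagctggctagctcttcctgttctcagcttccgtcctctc
Cldn7: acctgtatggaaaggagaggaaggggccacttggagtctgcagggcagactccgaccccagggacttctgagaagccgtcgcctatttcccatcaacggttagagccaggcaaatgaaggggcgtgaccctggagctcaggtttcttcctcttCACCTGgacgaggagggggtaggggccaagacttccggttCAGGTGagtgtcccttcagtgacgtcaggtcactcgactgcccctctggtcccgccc
These letters stood in 868 of 6069 windows (14.3%) of the genes compared and in 5657 of 32851 windows (17.2%) of the whole table. Of the 148 higher genes 96 had an entry, or 64.9%, so a check over that set is void, and its share, 30 of 111 windows (27.0%), is given only as a count. Of the 47 lower genes 39 (83.0%) had one, and 5 of their 57 windows (8.77%) held the letters. Of the 12 named higher genes with an entry, Krt14, Fxyd3, Muc4, Myh14, Wfdc18 and Cldn3 had no match in their windows. A match is a stretch of letters and no evidence of binding.

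Keratins split into those found in every 4T1 tumour and those far higher in Clone E. Of 7 compared, 4 were higher than in each other tumour and 0 lower, with a median log2 ratio of 2.13. Krt14 and Krt17 reached 50 CPM in Clone E alone, and with no minimum 4 of 13 were higher, with a median of 1.09. Krt14, a basal keratin of stratified epithelia and myoepithelium, was at 497 CPM (95% interval 478 to 516) in Clone E, 40.4 in the parental tumour, 1.76 in M, 26.2 in EM1, 11.0 in EM2 and 0.583 in EM3. Krt17, a keratin of basal-like tumours and of wounds, was at 105 CPM (96.5 to 114) against 0.137 to 7.40 CPM. Krt7 was at 579 CPM (95% interval 559 to 600.0) in Clone E, 253 in the parental tumour, 164 in M, 257 in EM1, 165 in EM2 and 6.48 in EM3. All 3 separated Clone E from every other tumour.

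Krt19, a keratin of simple and luminal epithelium, was at 478 CPM (95% interval 459 to 497) in Clone E, 56.4 in the parental tumour, 7.36 in M, 22.7 in EM1, 92.9 in EM2 and 11.9 in EM3. The 19 cells described above held 51.4% of its UMIs, and without them Clone E was at 238 CPM. Without the cells at the luminal limit in all 6 tumours, which left EM2 at 46.7 CPM, the smallest log2 ratio was 2.13 and the call remained. The main simple keratins did not separate Clone E. Krt8 was at 3077 CPM (95% interval 3029.7 to 3125) in Clone E, 2248 in the parental tumour, 1196 in M, 2509 in EM1, 2719 in EM2 and 1505 in EM3, with a smallest log2 ratio of 0.18. Krt18, its filament partner, was at 1056 CPM (1028 to 1084) against 592 to 1061 CPM, inside the range of the others. Other basal markers were low: Krt5 was at 9.19 CPM and Trp63, the p63 regulator of basal cells, at 3.45 CPM, so that the summed level of the 7 normal basal markers, 515 CPM, was nearly all Krt14.

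Laminin-332 is the basement membrane protein to which hemidesmosomes attach, and genes of its chains were higher in Clone E than in each other tumour. Lama3 had the highest smallest ratio of the genome, 4.36, and was at 571 CPM (95% interval 551 to 592) in Clone E, 18.4 in the parental tumour, 0.534 in M, 15.7 in EM1, 9.30 in EM2 and 1.61 in EM3. The next highest tumour, the parental one, had a small part of that level. Lamb3 was at 151 CPM (95% interval 140.3 to 162) in Clone E, 42.0 in the parental tumour, 0.764 in M, 17.3 in EM1, 19.1 in EM2 and 2.50 in EM3. For Lamb3 too the parental tumour was nearest, with a log2 ratio of 1.63. Itgb4, the hemidesmosomal integrin chain that binds this laminin, was highest in Clone E, at 732 CPM against 319 to 501 CPM, without being called, and its partner Itga6 was at 293 CPM against 250.4 to 352 CPM. In all, 3 of 8 compared genes of this list were higher and 0 lower, and 3 of 9 were higher with no minimum, with a median of 0.62. Lama3 and Lamb3 reached 50 CPM in Clone E alone.

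Of the epithelial transcription factors and splicing regulators, 4 of 11 compared were higher than in each other tumour and 0 lower. The count was 1 of 11 with a pseudocount of 50 CPM and 3 of 10 with doublets kept. In the main setting the 4 were Esrp1, Grhl2, Ovol1 and Elf3. All 4 reached 50 CPM in Clone E alone. With no minimum 6 of 20 were higher, beside 282 of all 19369 genes, with a median of 0.78. Esrp1, a splicing regulator that sets epithelial isoforms, was at 239 CPM (95% interval 226 to 253) in Clone E, 33.3 in the parental tumour, 0.428 in M, 17.7 in EM1, 1.30 in EM2 and 0.24 in EM3. It was near the floor in EM2, EM3 and M and low in EM1 and the parental tumour. Grhl2, a factor that keeps junction genes active, was at 57.0 CPM (50.7 to 63.9) against 0.857 to 22.6 CPM, with the parental tumour nearest at a log2 ratio of 1.04. Ovol1, a repressor of the mesenchymal programme, was at 50.5 CPM against 0.48 to 14.8 CPM. Elf3, an epithelial ETS factor, was at 88.0 CPM against 12.7 to 31.6 CPM, but the 19 cells held 49.1% of its UMIs and its smallest log2 ratio of 1.24 was 0.47 without the cells at the luminal limit. Gata3 (378 CPM against 280.4 to 463 CPM), Tfap2a (306 CPM against 199 to 335 CPM) and Klf5 (402 CPM against 456 to 629 CPM) were not called. The median log2 ratio of the list was 1.12, and 0.0085 over the 9 genes compared with median-of-ratios scaling.

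Genes outside the lists that were named by the size of their ratio included other epithelial ones. Fxyd3, a regulator of the sodium pump, was at 94.0 CPM (85.8 to 103) against 0.137 to 8.18 CPM. Myo5b, the motor that works with Rab25 in apical recycling, was at 72.7 CPM against 0.626 to 5.26 CPM, and Myh14, a non-muscle myosin, at 57.6 CPM against 0.411 to 3.54 CPM. Without the 19 cells, which held 21.3% of its UMIs, Myh14 was at 46.5 CPM. This is under the limit for a comparison, so its call ended by that limit, although the level stayed above the range of the other tumours. B4galnt3, a glycosyltransferase, was at 64.3 CPM against 0.48 to 4.14 CPM and the kinase gene Tnk1 at 130.0 CPM against 13.0 to 22.0 CPM. Fxyd3, Myo5b, Myh14, B4galnt3 and Tnk1 each reached 50 CPM in Clone E alone.

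The transmembrane mucin Muc4 and the secreted Wfdc18 rested on few cells. Muc4 was at 64.7 CPM (58.0 to 71.97) against 0.548 to 4.29 CPM, and 67.5% of its UMIs came from the 19 cells, without which it was at 21.6 CPM, under the limit for a comparison. Wfdc18 was at 58.4 CPM against 0.103 to 4.55 CPM and 84.6% came from them, which left 9.23 CPM. The same held for the antioxidant enzyme gene Gpx3, at 76.0 CPM against 3.53 to 8.37 CPM, of which 88.2% came from the 19 cells. These genes therefore do not describe most Clone E tumour cells.

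**Figure D3:**
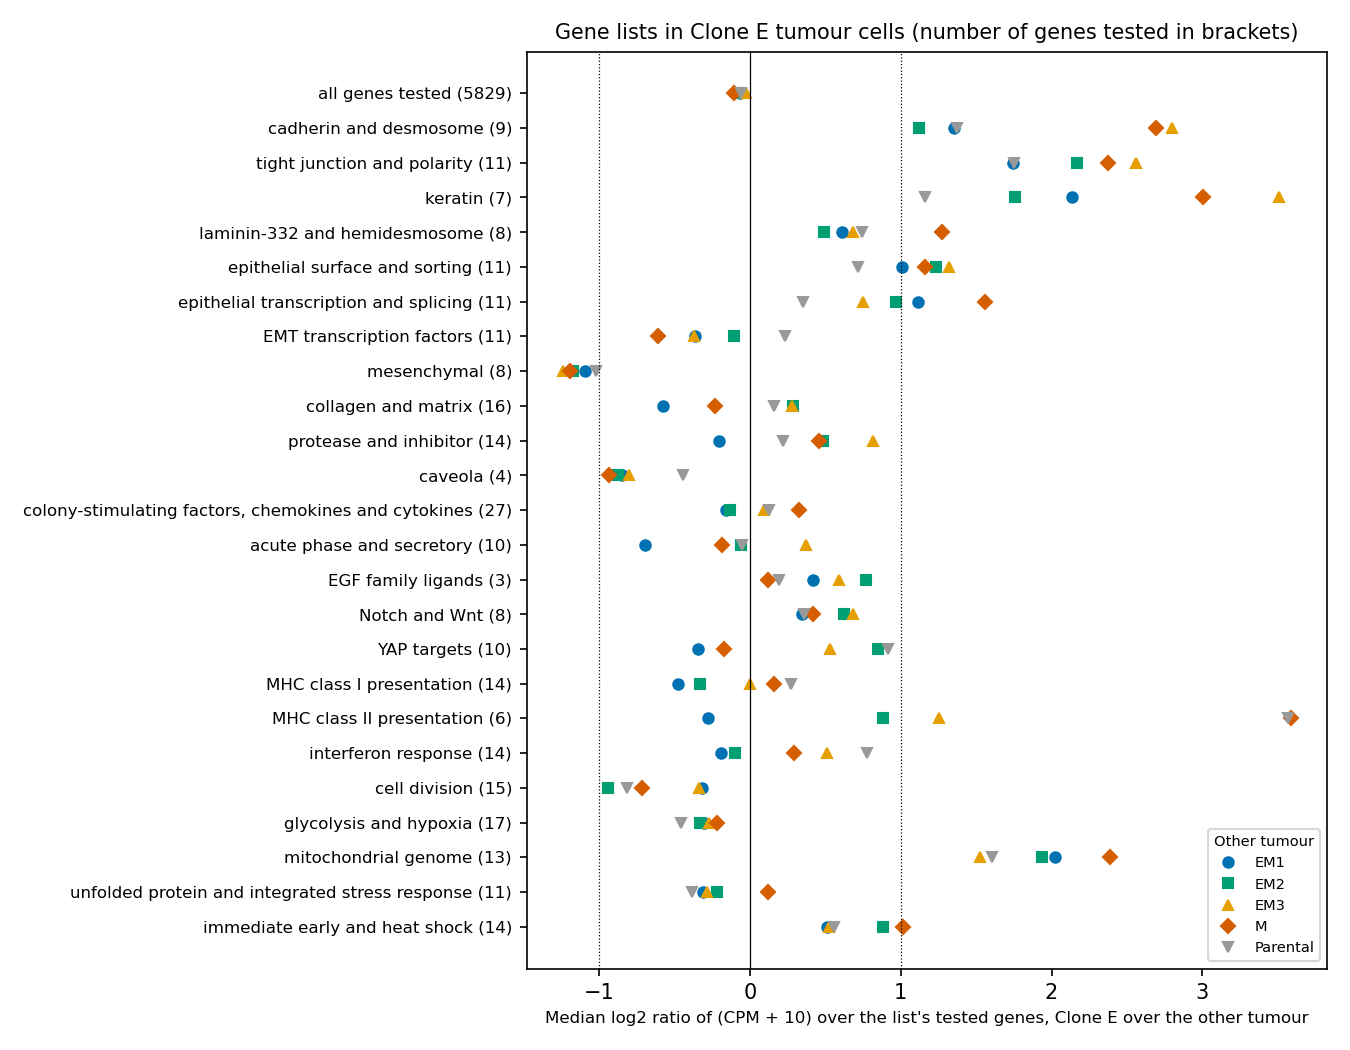
Median log2 ratio of CPM + 10 over the compared genes of 24 lists, for Clone E over each other tumour (1 symbol per tumour), with the number of genes in brackets and all genes at the top. Junction, keratin and mitochondrial lists lie to the right against all 5 tumours and the mesenchymal and caveola lists to the left, while MHC class II separates M and the parental tumour from EM1.

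Mesenchymal genes were lower in part. Of 8 compared, 4 were lower in Clone E than in each other tumour and 0 higher, with a median log2 ratio of −1.20, against 0.806% of all genes lower than in each. With a minimum of 20 CPM 4 of 10 were lower and 1 higher, with a median of −0.64. With no minimum 4 of 15 were lower and 1 higher and the median turned to 0.077, so the sign of the list median depends on the minimum. The genes added by this last step were under 20 CPM in every tumour, where the added 10 CPM shrinks a ratio. Summed over all 15 genes, the level was 20475 CPM in Clone E and 23085 to 37164 CPM in the others. Vim, the intermediate filament of mesenchymal cells, was at 4456 CPM (95% interval 4399 to 4514) in Clone E, 12991 in the parental tumour, 13604 in M, 14009 in EM1, 16043 in EM2 and 19034 in EM3. It was still abundant in Clone E, and the log2 ratios ran from −2.09 to −1.54. Sparc, a secreted matrix-binding protein, was at 126 CPM (95% interval 116 to 136) in Clone E, 455 in the parental tumour, 862 in M, 915 in EM1, 727 in EM2 and 839.6 in EM3. S100a4, a calcium-binding protein of motile cells, was at 466 CPM (95% interval 448 to 485) in Clone E, 2336 in the parental tumour, 975 in M, 1791 in EM1, 3159 in EM2 and 1636 in EM3. M came nearest for S100a4, with a log2 ratio of −1.05. Lgals1, the galectin-1 gene, was at 191 CPM (179 to 203) against 489 to 735 CPM.

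Fn1, which encodes fibronectin and is usually counted as mesenchymal, did not follow. It was at 14130.0 CPM (95% interval 14028 to 14232) in Clone E, 10238 in the parental tumour, 5013 in M, 12656 in EM1, 15147 in EM2 and 12708 in EM3. Clone E lay near EM2 at the upper end and M was lowest. The receptor tyrosine kinase gene Axl, at 454 CPM against 609.6 to 1072 CPM, and the actin-binding Cald1, at 359 CPM against 490.0 to 818 CPM, were lowest in Clone E without being called. Cdh2, the N-cadherin gene, was at 0.383 CPM or less in every tumour, so no exchange of cadherins was measurable at this depth.

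The transcription factors of the transition showed no call in either direction among 11 compared. Twist1 was at 183 CPM (95% interval 171 to 195) in Clone E, 293 in the parental tumour, 396 in M, 513 in EM1, 317 in EM2 and 454 in EM3. It was lowest in Clone E, with log2 ratios from −1.44 to −0.66. Zeb2 was at 133 CPM (124 to 144) against 152 to 261 CPM, but macrophages of the library held 1328 CPM. Snai1 was at 119.6 CPM (95% interval 110.4 to 129) in Clone E, 100.5 in the parental tumour, 303 in M, 216 in EM1, 143 in EM2 and 181 in EM3, where the parental tumour was below Clone E. Zeb1 (7.85 CPM against 3.89 to 6.80 CPM) and Snai2 (0.766 CPM against 0.037 to 0.392 CPM) were under the limit for a comparison in all 6. The median log2 ratio of the list, 0.06, turned to −0.23 with median-of-ratios scaling.

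The gene lowest in Clone E relative to every other tumour was Serpine2, protease nexin-1, an inhibitor of thrombin and plasminogen activators. It was at 3.25 CPM (95% interval 1.90 to 5.21) in Clone E, 696 in the parental tumour, 796 in M, 659 in EM1, 1066 in EM2 and 884 in EM3. Only 17 UMIs were found in Clone E, and the log2 ratio was at most −5.66. Bmp7, a secreted morphogen, was at 1.91 CPM (95% interval 0.918 to 3.52) in Clone E, 210.4 in the parental tumour, 61.7 in M, 45.4 in EM1, 109 in EM2 and 177 in EM3. EM1 came nearest to Clone E for Bmp7, and the parental tumour was highest. Emp3, a small membrane protein, was at 61.1 CPM (54.5 to 68.1) against 317 to 576 CPM, and the secreted protease Htra1 at 77.5 CPM against 306 to 574 CPM.

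Ptgs2, the inducible cyclooxygenase, was at 761 CPM (95% interval 737 to 785) in Clone E, 3834 in the parental tumour, 2024 in M, 3399 in EM1, 2907 in EM2 and 5183 in EM3. Ptges, the synthase that makes prostaglandin E2 from its product, was at 73.1 CPM (95% interval 66.0 to 80.8) in Clone E, 235 in the parental tumour, 302 in M, 258 in EM1, 234 in EM2 and 293 in EM3. All 5 other tumours lay above Clone E for both, with log2 ratios no nearer to 0 than −1.40 and −1.56. At 2000 UMIs per cell Ptgs2 had a UMI in 42.8% (39.1 to 46.5) of Clone E tumour cells (64.5% unthinned), against 76.4 to 89.1% in the others, with 55.2% in macrophages and 21.0% in T and NK cells of the library.

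The nuclear receptors Nr4a1 and Nr4a2, immediate early genes, were also lower. Nr4a1 was at 131 CPM (95% interval 121 to 141) in Clone E, 539.6 in the parental tumour, 1333 in M, 548 in EM1, 414 in EM2 and 686 in EM3. Nr4a2 was at 98.4 CPM (90.1 to 107) against 348 to 949 CPM. Cavin2, a caveolar coat gene, was at 4.02 CPM against 29.5 to 188 CPM and was the 1 of 4 compared caveola genes that was lower than in each. Lix1l (36.2 CPM against 184 to 245 CPM), the collagen-modifying Crtap (71.2 CPM against 221 to 317 CPM), Gchfr, a regulator of tetrahydrobiopterin synthesis (2.49 CPM against 22.2 to 58.8 CPM), and a feature whose deposited name marks it as deprecated (34.1 CPM against 135 to 267 CPM) were lower than in each as well.

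Matrix genes were mixed. Of 16 compared, 2 were higher and 1 lower than in each other tumour, and the median log2 ratio was −0.04. With no minimum 2 of 21 were higher and 1 lower, and Col1a2 reached 50 CPM in Clone E alone. Col5a1, a fibrillar collagen chain, was lower at 45.0 CPM (95% interval 39.4 to 51.1) in Clone E, 109 in the parental tumour, 232 in M, 303 in EM1, 180.1 in EM2 and 241 in EM3. Tnc, the matrix glycoprotein tenascin C, was higher at 298 CPM (95% interval 283 to 313) in Clone E, 64.4 in the parental tumour, 17.1 in M, 71.4 in EM1, 47.5 in EM2 and 40.1 in EM3. Fibroblasts of the same library held 2050.2 CPM of Tnc. Col1a2, at 79.4 CPM against 12.8 to 30.9 CPM, was led by fibroblasts with 19922 CPM, and its smallest log2 ratio of 1.13 was 0.64 in cells with under 0.2% of UMIs from leukocyte, granulocyte and macrophage markers. Spp1, osteopontin, was at 5325 CPM against 6376 to 7937 CPM, lowest in Clone E without a call. Among 14 compared proteases and inhibitors Serpine2 was the only call. Mmp13, a collagenase, was at 180.5 CPM (95% interval 169 to 192) in Clone E, 111 in the parental tumour, 7.24 in M, 308 in EM1, 63.1 in EM2 and 7.13 in EM3, so that EM1 exceeded Clone E while EM3 and M were far below it.

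Cytokine genes gave 5 calls of 27 compared, all higher, beside 2.54% of all genes. Csf2, Il1rn, Cxcl3 and Il1a reached 50 CPM in Clone E alone, and with no minimum 5 of 37 were higher. The median log2 ratio of the compared genes was 0.08, or −0.19 with median-of-ratios scaling. That scaling gave 3 calls, and a pseudocount of 50 CPM gave 1. Csf2, which encodes GM-CSF, a growth factor of myeloid cells, was at 102 CPM (95% interval 93.4 to 111) in Clone E, 22.1 in the parental tumour, 2.52 in M, 24.5 in EM1, 10.0 in EM2 and 42.2 in EM3. EM3 was nearest and M lowest, and fibroblasts of the library held 252 CPM. Its smallest log2 ratio, 1.10, was 1.25 in cells under the leukocyte marker limit. Il1b was at 349 CPM (333 to 365) against 18.8 to 72.5 CPM, beside 7060.4 CPM in dendritic cells, and its level was 143 CPM under that limit, with a smallest log2 ratio of 1.11. Il1rn, the antagonist of the same receptor, was at 89.0 CPM against 6.92 to 31.0 CPM. Under the leukocyte marker limit it was at 47.9 CPM, with a smallest log2 ratio of 1.05. That level is below the 50 CPM needed for a comparison, so its call ended.

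The calls of Cxcl3, a neutrophil chemokine, and Il1a also ended under the leukocyte marker limit. Cxcl3 was at 64.3 CPM against 1.52 to 16.4 CPM, and its smallest log2 ratio went from 1.49 to 0.48. Il1a was at 64.1 CPM against 4.44 to 25.9 CPM, and its ratio went from 1.05 to 0.77. The limit kept 554 of the 777 cells (71.3%), against 92.1 to 97.9% in the other tumours, and gave 124 higher and 47 lower genes in all. Mmp19, a metalloproteinase led by macrophages with 6806 CPM, and Csf2rb, led by dendritic cells with 2051 CPM, lost their calls there too, at 0.97 and 0.99. Klk8, a secreted serine protease (50.5 CPM against 0.977 to 9.64 CPM), and Cytip, an adaptor of leukocytes (68.3 CPM against 7.37 to 15.9 CPM), were also higher than in each other tumour and led by another class, with 85.7 and 3579 CPM.

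The factor best known from 4T1, Csf3 (G-CSF), was not called. It was at 3334 CPM (95% interval 3285 to 3384) in Clone E, 2981 in the parental tumour, 881 in M, 2295 in EM1, 2172 in EM2 and 1669 in EM3. Clone E and the parental tumour were the highest and M the lowest, and the smallest log2 ratio was 0.16. Cxcl1 was at 1021 CPM (994 to 1049) against 532 to 1939 CPM, within the range of the others. Ccl2, which draws monocytes, was at 10.1 CPM (95% interval 7.60 to 13.3) in Clone E, 196 in the parental tumour, 107 in M, 72.6 in EM1, 3.73 in EM2 and 4.80 in EM3. Clone E, EM2 and EM3 were thus low, and the parental tumour was highest. Tslp, an alarmin of epithelia, was at 88.8 CPM (95% interval 80.9 to 97.3) in Clone E, 90.4 in the parental tumour, 624 in M, 512 in EM1, 125 in EM2 and 458 in EM3, where the parental tumour was level with Clone E and EM1, EM3 and M were far above.

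Among acute phase and secretory genes, 3 of 10 compared were higher and 1 lower than in each, beside 2.54% and 0.806% of all genes. Ltf and Wfdc18 reached 50 CPM in Clone E alone, and with no minimum 3 of 13 were higher and 1 lower. C3, the central complement protein, was at 388 CPM (95% interval 371 to 405) in Clone E, 39.5 in the parental tumour, 30.6 in M, 84.7 in EM1, 57.7 in EM2 and 14.7 in EM3, with 1468 CPM in fibroblasts. Ltf, lactoferrin, was at 61.4 CPM against 0.994 to 6.57 CPM, with 1268 CPM in granulocytes. Of its UMIs 49.2% came from the 19 cells, where only 3 held any. Without the 19 cells it was at 32.0 CPM, under the limit for a comparison. As Wfdc18 also rests on them, 1 of the 3 higher calls remained without the cells at the luminal limit. Slpi, a secreted inhibitor of leukocyte proteases, was the lower one, at 445 CPM (95% interval 427 to 463) in Clone E, 1779 in the parental tumour, 2170.4 in M, 2047 in EM1, 1669.5 in EM2 and 3951 in EM3. Every other tumour was higher, with log2 ratios of −3.12 to −1.89, and B cells of the library held 5304 CPM. Lcn2, lipocalin 2, was at 785 CPM against 302 to 1135 CPM and was not called. Saa3, an acute phase amyloid, was at 16.8 CPM (95% interval 13.5 to 20.8) in Clone E, 16.8 in the parental tumour, 25.1 in M, 211 in EM1, 21.1 in EM2 and 7.81 in EM3, so that its high level was in EM1.

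MHC class II genes, which present antigen to helper T cells, were at levels near those of EM1. None of the 6 compared MHC class II genes was higher than in each other tumour, but all 6 were higher than in M and in the parental tumour, beside 7.75% and 6.12% of all genes. H2-Aa was at 601 CPM (95% interval 581 to 623) in Clone E, 34.3 in the parental tumour, 34.8 in M, 702 in EM1, 284 in EM2 and 194 in EM3. Cd74, the invariant chain, was at 1146 CPM (95% interval 1117 to 1175) in Clone E, 85.1 in the parental tumour, 66.0 in M, 1394 in EM1, 665 in EM2 and 536 in EM3. EM1 was above Clone E, EM2 and EM3 lay between, and M and the parental tumour were lowest for both. H2-Aa had a UMI in 58.3% (54.6 to 62.0) of Clone E tumour cells at 2000 UMIs (90.5% unthinned), against 87.7% of macrophages and 67.5% of T and NK cells of the library, whose median depths were 5067.5 and 2022 UMIs before thinning. As T and NK cells, which should lack the gene, had the larger share, the share is not read as expression. Under the leukocyte marker limit H2-Aa was at 564 CPM and Cd74 at 1059 CPM. The part of other cells' RNA in these levels was not tested.

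Of 14 MHC class I presentation genes none was called against all 5. H2-K1 was at 941 CPM (915 to 967) against 484 to 1099 CPM, and B2m, the shared light chain, was lowest in Clone E at 306 CPM against 375 to 582 CPM. Nlrc5, the activator of class I genes, was highest in Clone E at 274 CPM against 46.7 to 204 CPM, with a smallest log2 ratio of 0.41. Of 14 interferon response genes only Cd274, which encodes PD-L1, was higher than in each, at 54.7 CPM (95% interval 48.6 to 61.5) in Clone E, 6.03 in the parental tumour, 16.1 in M, 17.0 in EM1, 16.8 in EM2 and 16.9 in EM3. Dendritic cells held 781 CPM, and the smallest log2 ratio of 1.26 was 0.95 under the leukocyte marker limit. Cd274 reached 50 CPM in Clone E alone, and with no minimum 1 of 31 interferon response genes was higher.

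All 13 genes of the mitochondrial genome, which encode subunits of the respiratory chain, were higher in Clone E than in each other tumour. For example mt-Co2, a subunit of cytochrome oxidase, was at 3352 CPM (95% interval 3302 to 3402) in Clone E, 1083 in the parental tumour, 632 in M, 716 in EM1, 835 in EM2 and 1132 in EM3. Mitochondrial UMIs made up 1.86% of the summed UMIs in Clone E and 0.365 to 0.647% in the others. When cells were limited to 12646 UMIs in every tumour, the median log2 ratio of the list was 1.24 instead of 1.94 and 0 of 13 were called, and with cells limited to 4.91% mitochondrial UMIs 11 were called. The limit of 12646 UMIs kept all 777 Clone E cells and 640 of 1967 EM3 and 1115 of 3326 EM2 cells, and the part of depth in the difference was not tested.

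Stress-associated transcripts were higher in part. Of 14 compared immediate early and heat shock genes, 2 were higher than in each other tumour and 0 lower, beside 2.54% and 0.806% of all genes. This list does not hold Nr4a1 and Nr4a2, which were lower. Atf3, a stress-induced repressor, was at 1380.3 CPM (95% interval 1349 to 1413) in Clone E, 585 in the parental tumour, 534 in M, 616 in EM1, 498 in EM2 and 494 in EM3. Hspa1a, an inducible chaperone, was at 63.5 CPM against 4.99 to 11.4 CPM, with 951 CPM in endothelial cells. Of its UMIs 57.2% came from the 19 cells, without which it was at 27.9 CPM and its call ended. Hspa1a reached 50 CPM in Clone E alone. Fos was at 1834 CPM (1798 to 1871) against 352 to 1002 CPM and Jun at 2569.9 CPM against 728 to 1341 CPM, both highest in Clone E with smallest log2 ratios of 0.87 and 0.93. Both are immediate early genes and were detected in every tumour.

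Cell division genes were not called among 15 compared, and 11 were lowest in Clone E, beside 2017 of all 5829 genes, and the median log2 ratio was −0.70, beside −0.06 for all genes. With cells limited to 12646 UMIs the median was −0.10 over the 9 genes then compared. Mki67 was at 40.2 CPM (95% interval 34.9 to 46.0) in Clone E, 97.9 in the parental tumour, 101 in M, 49.7 in EM1, 127 in EM2 and 68.1 in EM3. Top2a, a topoisomerase of dividing cells, was at 113 CPM (95% interval 104 to 123) in Clone E, 247 in the parental tumour, 239.6 in M, 114 in EM1, 331 in EM2 and 166 in EM3. Clone E and EM1 were level for Top2a and EM2 was highest. Pcna was at 157 CPM (147 to 168) against 194 to 254 CPM. Against EM2, M and the parental tumour 7, 7 and 5 of the 15 were lower, beside 3.76%, 6.4% and 3% of all genes, and against EM1 and EM3 0 were.

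The glycolysis and hypoxia list had no call among 17 compared, and 2 of 23 were higher with no minimum. Of the 17, 8 were lowest in Clone E, beside 2017 of all 5829 genes. Ldha, lactate dehydrogenase, was at 387 CPM (371 to 405) against 699 to 1037 CPM, with log2 ratios from −1.40 to −0.83. Ndrg1, a gene induced by low oxygen, was highest in Clone E at 1267 CPM against 434 to 927 CPM. The stress response of the endoplasmic reticulum had no call among 11, with Hspa5, its chaperone, at 790.1 CPM against 776 to 1121 CPM. Notch and Wnt genes had none among 8, and 3 of 18 higher with no minimum, and ligands of the EGF receptor none among 3. Notch1 was highest in Clone E at 125 CPM against 16.6 to 63.9 CPM, with a smallest log2 ratio of 0.87. Of 10 YAP targets 1 was higher than in each, F3, the tissue factor gene, at 100.5 CPM against 8.002 to 36.1 CPM, and 54.7% of its UMIs came from the 19 cells. Its smallest log2 ratio of 1.26 was 0.35 without the cells at the luminal limit in all tumours. F3 reached 50 CPM in Clone E alone.

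Among single cells the epithelial difference was broad. At 2000 UMIs per cell Epcam had a UMI in 85.3% (82.5 to 87.8) of Clone E tumour cells (92.5% unthinned) and in 1.502 to 28.8% of tumour cells elsewhere, Cldn4 in 88.8% (86.2 to 91.0) and 1.55 to 40.8%, and Cdh1 in 69.7% (66.2 to 73.1) and 0.673 to 8.34%. Macrophages of the Clone E library, which should lack these genes, had a UMI in 7.62%, 13.6% and 10.3% and T and NK cells in 13.1%, 24.2% and 15.9% at the same 2000 UMIs. All 3 shares in Clone E tumour cells were thus above those of both immune classes. Lama3 was found in 39.1% (35.5 to 42.8) (0.043 to 3.11% elsewhere, 2.55% of macrophages) and Krt14 in 36.0% (32.5 to 39.7) (0.155 to 4.58% elsewhere, 1.84% of macrophages).

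The UMIs of 93 epithelial genes summed to a median of 47 per thinned Clone E cell, with 5th and 95th percentiles of 23 and 95.4. The medians were 25 in the parental tumour, 17 in M, 26 in EM1, 25 in EM2 and 18 in EM3. Of the 713 Clone E cells 49.8% lay above the 95th percentile of the parental tumour, 56.4% above that of EM1, 69.4% above that of EM2 and 86.0% above those of EM3 and M. No more than 0.281% lay under the 5th percentile of any. Most of the population was thus shifted in this sum, and a large part of it overlapped with the parental tumour. Cldn4 alone held 9.32 of the mean sum of 53.8 UMIs in Clone E, and 0.691 of 26.7 in the parental tumour. The shift without Cldn4 was not tested.

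The UMIs of 15 mesenchymal genes summed to a median of 34 in Clone E, against 53 in the parental tumour, 44 in M, 60 in EM1, 71 in EM2 and 68 in EM3. Between 26.8% (M) and 60.03% (EM2) of Clone E cells lay under the 5th percentile of another tumour. The spread was wide, from 6.60 to 82.4 at the 5th and 95th percentiles, and 7.71% of cells lay above the 95th percentile of M. Fn1, which did not follow the other mesenchymal genes, held 26.5 of the mean sum of 38.3 UMIs in Clone E. In M it held 10.3 of 45.3. The sum in Clone E was thus largely this 1 gene, and its spread without Fn1 was not tested. Vim alone had a UMI in 90.9% (88.5 to 92.9) of cells, against 99.7 to 100.0% elsewhere. Within Clone E the epithelial and mesenchymal sums had a Spearman correlation of 0.07 over 713 cells of 1 library, at equal depth, which is given as a description only.

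**Figure D4:**
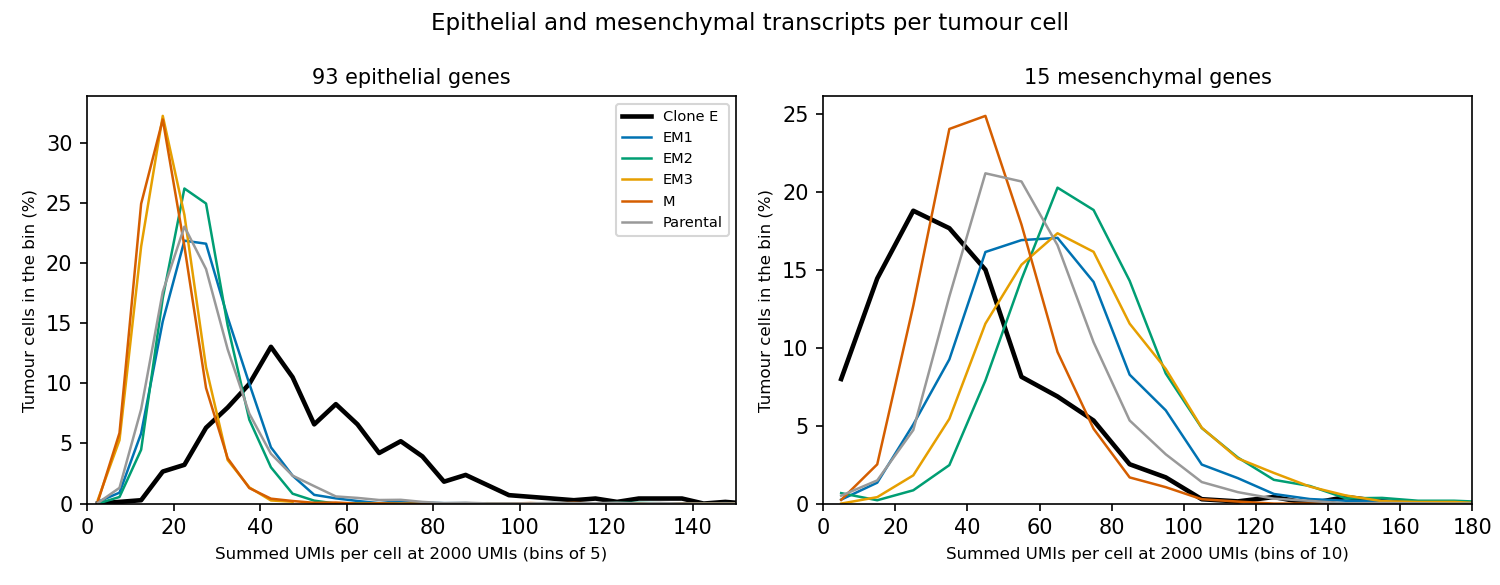
Share of tumour cells by their summed UMIs of 93 epithelial genes (left, bins of 5) and 15 mesenchymal genes (right, bins of 10), each cell thinned to 2000 UMIs, for Clone E (thick line) and the other 5 tumours. Clone E lies to the right of the others in epithelial UMIs (median 47 against 17 to 26) and to the left in mesenchymal UMIs (median 34 against 44 to 71), with overlap in both. In Clone E, Fn1 alone holds 26.5 of the mean mesenchymal sum of 38.3 UMIs, and Cldn4 alone 9.32 of the mean epithelial sum of 53.8.

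Some transcripts were unevenly spread among Clone E tumour cells. Of 4869 genes with a mean of at least 0.1 thinned UMIs, 228 had a variance of at least 2 times the mean, around a median of 1.09. S100a9 and S100a8, granulocyte proteins, led with 73.9 and 48.3 times, and granulocytes of the library held 74294 and 50618 CPM of them. Fos (29.6 times), Jun (17.1) and the chaperone Hspa1b (16.1) followed among stress genes, and Fn1 (20.5), Spp1 (16.3), Cldn4 (15.1) and Csf3 (13.9) among the abundant ones. Cebpd, Gpx3, Muc4, Ltf, Krt19 and Wfdc18 made up the rest of the first 15. Genes of granulocytes, of the immediate early response, of the 19 cells and of the tumour cells themselves thus stood side by side in this ranking.

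The 36 cells with most UMIs of a gene, 5% of the 713, held very different parts of its total. They held 15.9% for Epcam, 19.9% for Cdh1, 25.1% for Cldn4, 39.5% for Lama3 and 41.7% for Krt14. For Krt17 they held 73.2%, for Krt19 69.3% and for S100a9 73.9%. Muc4, Wfdc18, Gpx3 and Ltf had a UMI in only 18, 14, 18 and 21 cells. All their UMIs therefore had to lie in the 36 highest cells of each. For Fn1 they held 17.4%. This share also depends on how many UMIs a gene has.

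Some of these genes met in the same cells. Krt17 had a UMI in 17.1% of the 257 cells with Krt14 and in 6.36% of the 456 without it. Of the 18 cells with Muc4, 12 also had Wfdc18, against 2 of the 695 without Muc4. Of the 18 cells with Gpx3, none had Wfdc18, against 14 of the 695 without Gpx3. These are counts within 1 tumour and carry no test.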

How the data were processed

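The 6 Total libraries of 4T1-derived tumours were used, and the 6 libraries of CD45-selected cells were not used here. Cell Ranger and the genome build mm10 are named in the submitters' processing notes, with no version. The labels' protocols name a fixed-RNA preparation kit and a 3′ kit, so the chemistry is not settled here. The deposited count tables hold whole UMI counts per gene and cell, which the authors had already filtered. The deposited metadata give the authors' cell annotation and the mitochondrial percent of each cell, and its UMI, gene and mitochondrial values equalled recomputed ones in all cells (tolerance 1e-06).

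Doublets were scored in each library with Scrublet in scanpy 1.11.5 (2 simulated pairs per cell, 6% expected, 30 components), and a shared score limit marked 1284 of 60657 cells (2.12%), which were left out. Counts were summed over the annotated tumour cells of each tumour and scaled to CPM with Python 3.11.15, numpy 2.4.6, scipy 1.17.1 and pandas 2.3.3. A gene was compared at 50 CPM or more in at least 1 sum and called at a log2 ratio of CPM + 10 of at least 1 in size. Intervals are exact Poisson intervals for sums and Clopper-Pearson intervals for shares, at 95%, and cover counting error only. No test was made, since each group is 1 tumour. Cells were thinned to 2000 UMIs, with 64 shallower Clone E cells left out, for shares and sums per cell. The calling step was tested on simulated data.

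The text names the 20 genes with the highest smallest ratio over the 5 tumours and the 15 with the lowest largest ratio, not led by another class of the library. It also names the 10 highest among those led by one, the 15 most variable genes and members of the gene lists. Some genes under this rule are not reported here. The members and lists were chosen with earlier results of these data known. Alternatives covered doublets, pseudocount, expression minimum, scaling, weighting of cells, depth and marker limits, and leaving out each other tumour. Promoter sequences are RefSeq entries on GRCm38.p6.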

Additional observations from a re-analysis of the deposited data

How the results depend on the processing

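Each group was 1 tumour, so the intervals do not include variation between mice, and the lower depth of Clone E cells limits genes of low count. No paired analysis was possible because each group has 1 tumour and no replicate numbers pair cells. The limits on mitochondrial percent, UMIs, leukocyte and luminal markers and shared droplets, leaving out each other tumour and thinning to 1000 UMIs were chosen after seeing the data. Unless a value shows it, the cause of a change was not tested. With a pseudocount of 1 CPM, 81 genes were lower than in each tumour and 272 lower than in the parental one. With 50 CPM the counts were 60 higher and 18 lower than in each, and higher and lower 131 and 92 (EM1), 163 and 71 (EM2), 172 and 85 (EM3), 221 and 134 (M), and 139 and 66 (parental). A minimum of 20 CPM, which admits more genes, gave 251 higher than in each, and 498 (EM1), 600 (EM2), 599 (EM3), 696 (M) and 604 (parental). No minimum gave 282, and 592, 701, 677, 776 and 695 in the same order. There, 5 gene lists instead of 8 had a median of at least 1 in size, and the mesenchymal median was 0.077 instead of −1.20. Median-of-ratios scaling gave 90 higher and 121 lower than in each, with 173 and 511 (EM1), 212 and 588 (EM2), 220 and 524 (EM3), 218 and 377 (parental), and 639 lower than in M. The limit on UMIs gave 97 higher than in each and 135 lower than in EM2. Thinning to 1000 UMIs gave 101 variable genes instead of 228, and 43.0% of cells above the 95th percentile of the parental epithelial sum instead of 49.8%. Leukocyte markers summed to 184 CPM in cells with no Ptprc UMI and 154 CPM under the leukocyte marker limit, instead of 303 CPM. Leaving out each other tumour gave 159 to 172 higher and 51 to 59 lower genes. As fewer ratios then have to pass, this step cannot lose a higher gene. Of the values that answer a comparison, 203 stayed within their limits under an alternative and 44 moved. Of the other values, for named genes and list medians among them, 903 stayed, 407 moved and 1 reversed.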
